A study of Mus musculus with 7 samples.

Results

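The nuclear-encoded subunits of oxidative phosphorylation were examined in microglia of the dorsal hippocampus. Genes were taken by symbol from the protein-coding genes of GENCODE M21 (names beginning Nduf with a subunit letter and number, Sdha to Sdhd, Uqcr, Cox4 to Cox8, and Atp5). Of 84 matching genes among the 55401 in the count table, 81 had at least 10 counts in every library and were kept: 36 of 36 in complex I, 4 of 4 in complex II, 8 of 8 in complex III, 16 of 18 in complex IV and 17 of 18 in complex V. The 3 that were left out were Cox7b2, with at most 1 count in a library, Cox8c, with none, and a second Atp5o entry, also with none. Just inside the count minimum were Cox6a2, at 28 to 100 counts, and Cox4i2, at 31 to 91.

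The libraries came from C57BL/6 mice of 6 to 8 weeks, described in the series title as adult males. Every mouse was injected in the dorsal dentate gyrus with AAV-RAM-Cre, a virus in which the activity-dependent RAM promoter drives Cre recombinase in neurons that were active. The 3 ATG7 libraries were from mice given AAV-Dio-Atg7-Flag with it, so that Flag-tagged Atg7, an autophagy enzyme, was expressed in Cre-positive engram neurons, and the 4 EYFP libraries were from mice given AAV-Dio-EYFP, which supplies a fluorescent protein. The transgenes were thus directed at neurons, while the RNA was taken from cells enriched with CD11b beads after dissociation. The labels do not say whether a library held 1 mouse or several, and p-values below measure only the spread between these libraries, which may be partly technical. The question was whether the genes of the respiratory chain differed in microglia near engram neurons that overexpress Atg7.

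Oxidative phosphorylation takes place in the inner mitochondrial membrane. Complex I (NADH dehydrogenase) and complex II (succinate dehydrogenase) pass electrons to ubiquinone, complex III (the cytochrome bc1 complex) passes them to cytochrome c, and complex IV (cytochrome c oxidase) passes them to oxygen. Complexes I, III and IV pump protons, and complex V (ATP synthase) uses the returning protons to make ATP. Most subunits are encoded in the nucleus, and a few catalytic ones in the mitochondrial genome. Microglia use both oxidative phosphorylation and glycolysis, and inflammatory stimuli are known to move them toward glycolysis.

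All 37 genes encoded in the mitochondrial genome, among them the 13 that encode subunits of these complexes, had 0 counts throughout, so only nuclear genes could be measured. Values written with ± are the mean ± SD over the 4 EYFP or the 3 ATG7 libraries. Total counts lay between 35934210 and 55217119 per library. All 8 microglia markers were detected, with a summed level of 19058 to 23084 CPM (counts per 1e6 mapped to genes, scaled by trimmed-mean factors) in EYFP and 18965 to 23365 CPM in ATG7. Markers of choroid plexus epithelium were also abundant: none of the 10 was at 0, and their sum was 55419 to 73084 CPM in EYFP and 46956 to 61773 CPM in ATG7. The 8 neuronal markers together reached at most 75.0 CPM, with none at 0. EYFP 3 stood apart in sex-linked genes, with 938.5 CPM of Xist against 0.151 to 0.574 CPM elsewhere and 27.6 CPM of Ddx3y against 121 to 169 CPM. Ddx3y was thus lower there but not absent, and the library held both transcripts. The library labelled EYFP 3 therefore goes against the title's description as all male. Whether it held RNA of more than 1 mouse was not tested. The results for the members as a whole, the complexes, Ndufs1, Cox6a2, Cox4i2, Cox7a2l and Acod1 are also given without it. In bulk RNA of this kind, fewer cells of a type and less RNA per cell cannot be told apart.

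Promoter sequences are shown first, because factors that bind them are the known route by which respiratory genes are expressed together. RefSeq promoters on GRCm38.p6, each from 250 bases before to 50 after a start site, were matched by symbol to 65 of the 81 genes, with 70 windows. Both strands were searched for GCGCANGCG, a core of the site of nuclear respiratory factor 1 (NRF1), for CCGGAAG, a site of ETS-family factors such as GABP, for AAGATGGCG, a site of YY1, and for TATAAA, the TATA box. The NRF1 letters were in 21 of the 70 member windows and in 6.25% of all 32851 promoters of the same length. The ETS letters were in 22.9% against 8.86%, the YY1 letters in 7 of 70 windows against 1.40%, and TATAAA in 7 of 70 against 13.6%. At least 1 of the first 3 motifs was present for 35 of the 65 genes, and NRF1 and ETS letters together for 6. By complex they were found for 16 of 32 genes in complex I, 3 of 3 in complex II, 3 of 5 in complex III, 3 of 12 in complex IV and 10 of 13 in complex V. A match is a description of letters and does not show binding.

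Windows of 5 genes are printed from 200 bases before to 30 after the start, 5′ to 3′ on the gene's strand, with every matched motif in capitals. They show a promoter with repeated NRF1 letters (Sdha), one with NRF1 and ETS letters together (Cox6a1, the widely expressed partner of Cox6a2), one with a pair of ETS matches (Ndufs3), one with YY1 and ETS letters (Atp5j), and, for contrast, that of a muscle-type isoform with none of the 3 and a TATAAA (Cox8b). The TATAAA of Cox8b lies after the annotated start and not before it. The Sdha window lies at chr13:74350211-74350440 on the minus strand, that of Cox6a1 at chr5:115348929-115349158 on the minus strand, that of Ndufs3 at chr2:90904692-90904921 on the minus strand, that of Atp5j at chr16:84834947-84835176 on the minus strand, and that of Cox8b at chr7:140900417-140900646 on the minus strand. The Atp5j window falls inside the annotated Gabpa gene, which runs on the plus strand from 84834925 and encodes the DNA-binding subunit of GABP.
Sdha: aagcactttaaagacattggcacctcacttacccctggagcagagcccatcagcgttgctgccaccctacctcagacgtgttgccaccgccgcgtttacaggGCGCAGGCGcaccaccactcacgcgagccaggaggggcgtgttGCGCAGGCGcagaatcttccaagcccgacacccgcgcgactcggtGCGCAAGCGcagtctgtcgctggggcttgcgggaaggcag
Cox6a1: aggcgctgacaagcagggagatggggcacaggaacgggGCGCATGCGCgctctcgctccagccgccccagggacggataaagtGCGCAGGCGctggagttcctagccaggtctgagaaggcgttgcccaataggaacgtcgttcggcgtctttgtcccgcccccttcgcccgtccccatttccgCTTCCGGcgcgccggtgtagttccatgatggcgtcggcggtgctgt
Ndufs3: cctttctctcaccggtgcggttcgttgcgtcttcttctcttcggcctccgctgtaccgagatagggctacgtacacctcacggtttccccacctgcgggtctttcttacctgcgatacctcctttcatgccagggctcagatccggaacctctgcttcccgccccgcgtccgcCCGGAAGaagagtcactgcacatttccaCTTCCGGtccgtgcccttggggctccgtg
Atp5j: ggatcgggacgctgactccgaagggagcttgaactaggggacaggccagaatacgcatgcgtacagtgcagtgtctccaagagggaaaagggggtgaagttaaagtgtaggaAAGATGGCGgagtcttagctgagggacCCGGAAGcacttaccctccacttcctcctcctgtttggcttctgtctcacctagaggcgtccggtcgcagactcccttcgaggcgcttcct
Cox8b: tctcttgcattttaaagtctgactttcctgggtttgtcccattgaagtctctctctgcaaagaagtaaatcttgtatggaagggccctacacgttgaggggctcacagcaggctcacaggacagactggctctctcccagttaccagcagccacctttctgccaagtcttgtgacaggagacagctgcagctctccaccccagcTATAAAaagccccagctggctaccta
By motif, the genes had median log2 fold changes (ATG7 over EYFP) of -0.03 over the 35 with any of the 3 and -0.05 over the other 30. EYFP 2 held the highest level for 33 of the 35 and 29 of the 30. Nrf1 itself was at 32.8 ± 3.46 CPM in EYFP and 34.3 ± 1.38 CPM in ATG7, and Gabpa at 71.7 ± 2.59 and 71.0 ± 2.07 CPM. Ppargc1a, a coactivator that drives mitochondrial biogenesis, was at 29.4 ± 5.44 and 24.4 ± 2.21 CPM (log2 fold change -0.27, edgeR adjusted p = 0.466).

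No subunit gene passed the test between the groups. None of the 81 reached an adjusted p under 0.05 in either direction (edgeR quasi-likelihood test, Benjamini-Hochberg over 19199 genes), where 0.755% of all genes tested did (145 genes; 0.688% were higher in ATG7 and 0.0677% lower). At an unadjusted p under 0.05 there were 2 of 81, against 12% of all genes tested (2300), and DESeq2 and limma-voom also gave 0 at the adjusted threshold. The members' median log2 fold change was -0.04, against a median of -0.004 over all genes tested, and 61 were below 0 and 20 above. Among all genes tested 50.8% were below 0. Groups did not overlap for 1 gene of the 81, which was lower in ATG7, against 11.2% of all genes tested (6.33% higher and 4.91% lower). Without EYFP 3 the median was -0.05, 62 genes were below 0 and again none passed. The differences in complex means were then -0.04, -0.10, -0.04, 0.02 and -0.05 for complexes I to V. No pathway list gained a passing gene without EYFP 3.

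In the fit with no covariate, the intervals limit how large a difference could have gone unseen. They do not cover differences in the mix of cells. With choroid plexus markers as a covariate, as given below, the members' median was 0.18. The 95% confidence interval of the log2 fold change lay within ±0.5 for 79 of the 81 genes, the exceptions being the low-count isoforms Cox4i2 and Cox6a2. The group means of 71 genes were within 10% of each other on the fitted scale. For 78 genes the difference in mean log2 CPM was smaller than the SD among the EYFP libraries. The median SD of the members was 0.220 in EYFP, against 0.184 over all genes tested, and 0.133 in ATG7, while the median absolute difference in mean log2 CPM was 0.0547. The plot of fold changes with their intervals shows the narrow band around 0 and the pair of wide exceptions.

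**Figure D1:**
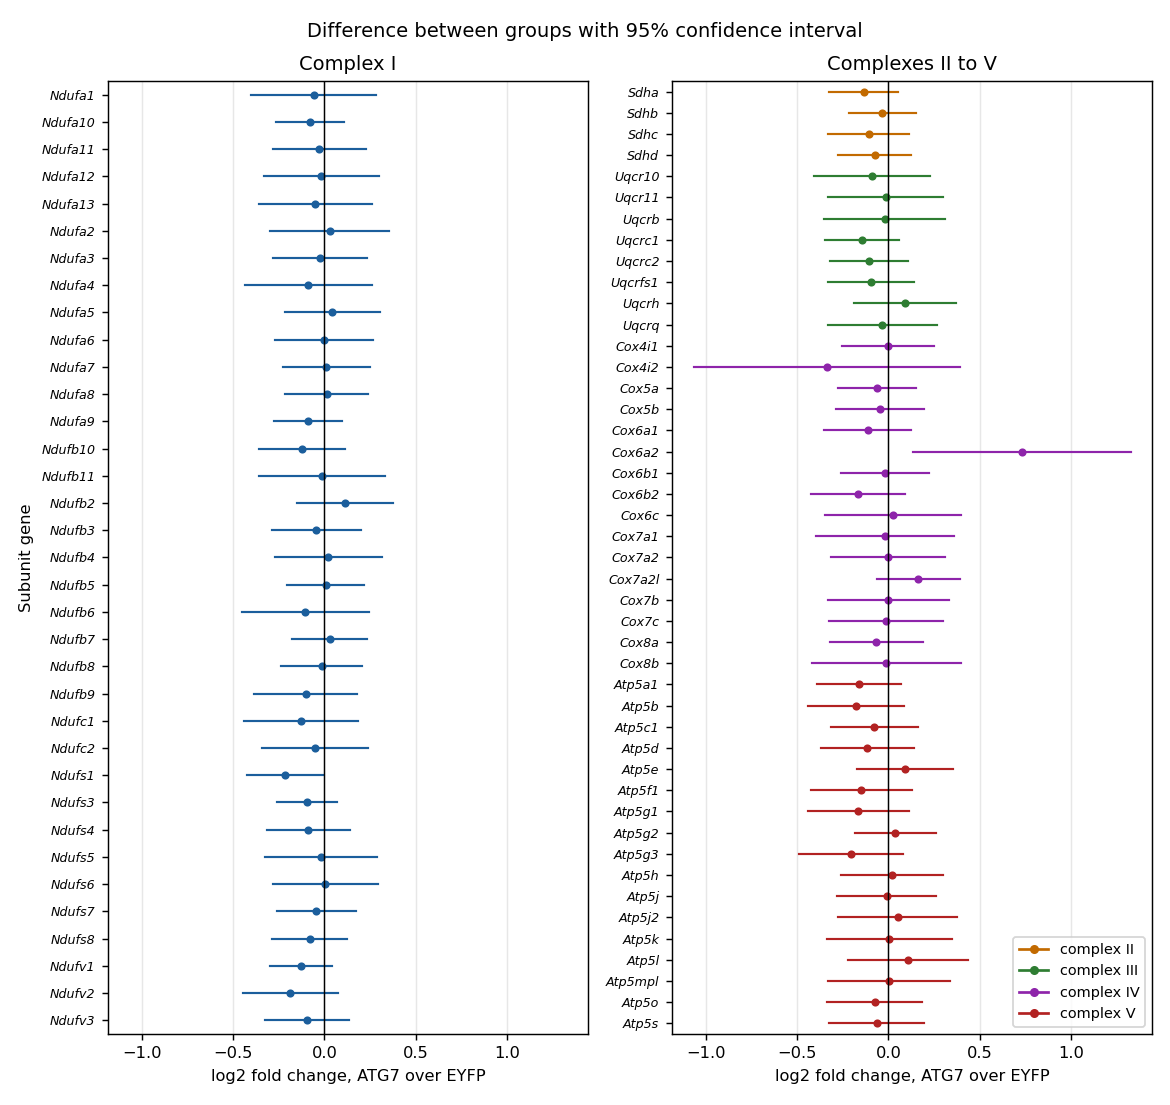
Log2 fold change, ATG7 over EYFP, of each subunit gene reported here (points) with its 95% confidence interval (lines), coloured by complex. All intervals drawn but those of Cox4i2 and Cox6a2 lie within ±0.5, and those of Ndufs1 and Cox6a2 do not include 0.

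The libraries differed more than the groups did, and the subunit genes moved together between libraries. Mean log2 CPM over the 81 genes was 6.03, 6.53, 6.26 and 6.24 across EYFP 1 to 4, and across ATG7 1 to 3 it was 6.32, 6.09 and 6.30. EYFP 1 was thus lowest and EYFP 2 highest, 0.51 apart, and every ATG7 library lay between them; the difference of the group means was -0.03. EYFP 2 held the highest level of 77 of the 81 genes, where 20.4% of all genes tested were highest there. The other 4 were Ndufb4 and Atp5e, highest in ATG7 1, Cox6a2 in ATG7 2 and Cox7a2l in ATG7 3. EYFP 1 held the lowest level of 57 genes (12.8% of all genes tested) and ATG7 2 of 20 (14.2%). Summed over all members the level was 9663 ± 1412 CPM in EYFP and 9176 ± 732 CPM in ATG7.

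**Figure D2:**
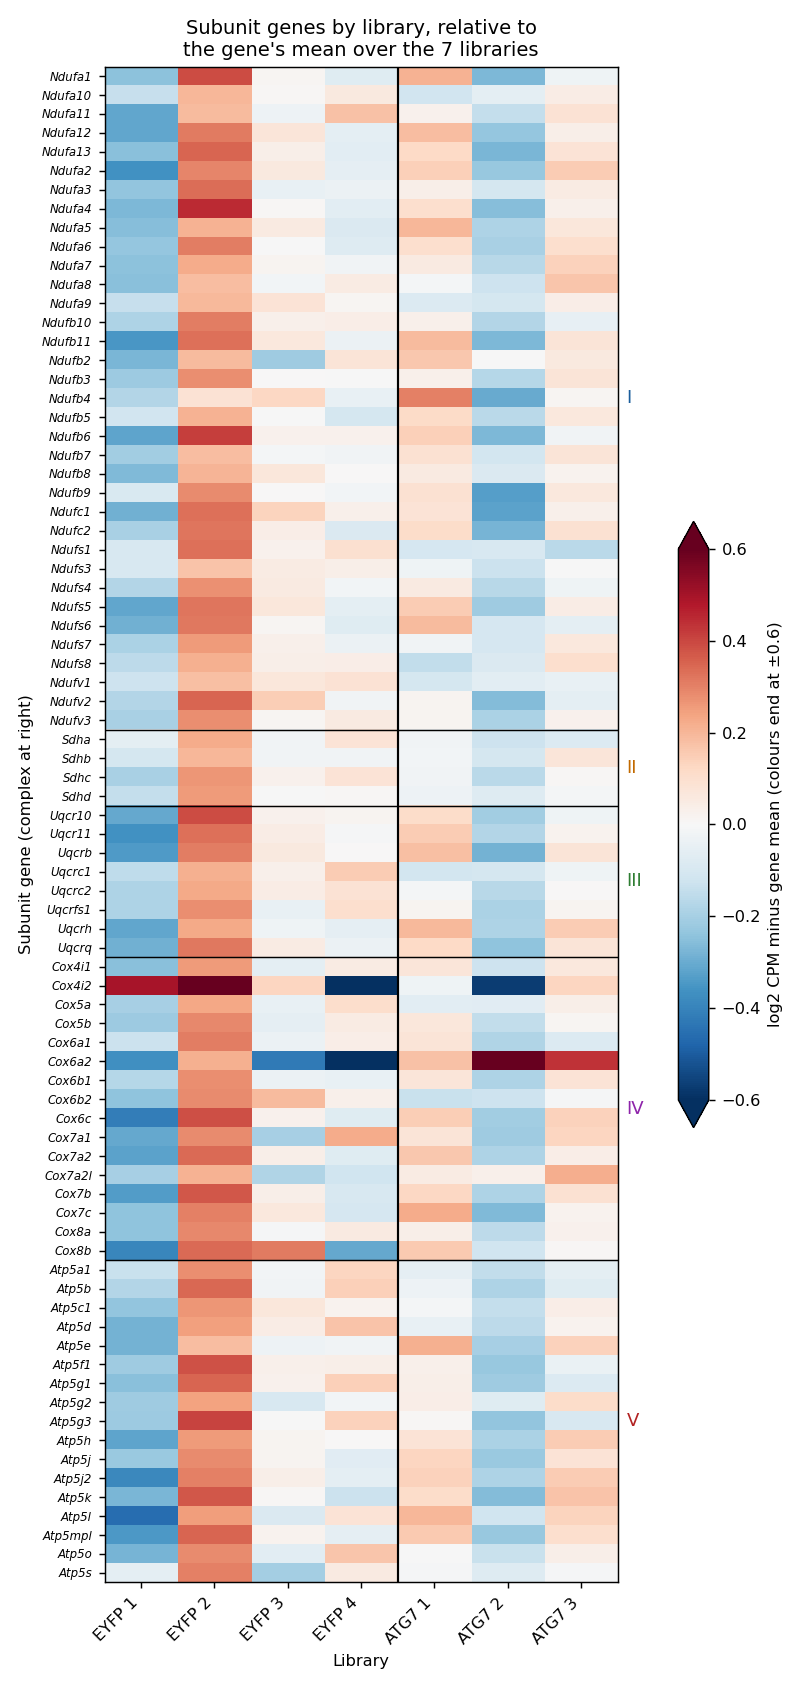
Log2 CPM of the subunit genes reported here (rows, by complex) in the 7 libraries (columns), relative to each gene's mean over the libraries. The EYFP 2 column is high for nearly all of them, the EYFP 1 and ATG7 2 columns are low for most, and Cox4i2 and Cox6a2 have patterns of their own.

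Lists of mitochondrial ribosomal proteins, assembly factors, import, quality-control, redox and glycolysis genes, described below, varied like the subunit genes. Each had its highest mean log2 CPM in EYFP 2 and its lowest in EYFP 1. For the mitochondrial ribosome these were 0.27 apart. Other lists did not, such as biogenesis (highest in ATG7 3, lowest in EYFP 2) and the cytosolic ribosome (highest in ATG7 3, lowest in EYFP 1). Choroid plexus markers also varied between the same libraries. Their mean log2 CPM was 9.55, 10.01, 9.62 and 9.87 across EYFP 1 to 4, and across ATG7 1 to 3 it was 9.67, 9.37 and 9.48. Like the subunit genes they were highest in EYFP 2 (9 of 10 markers). Over all libraries 8 of 10 were lowest in ATG7 2 and none in EYFP 1. Within each group, the means of both lists had the same extremes. EYFP 1 was lowest and EYFP 2 highest in EYFP, and ATG7 2 was lowest and ATG7 1 highest in ATG7. All 10 had log2 fold changes below 0, with a median of -0.26, and none passed the test. When their mean was a covariate in the fit, 75 of the 81 subunit genes had log2 fold changes above 0, with a median of 0.18, 16 reached an unadjusted p under 0.05, all higher in ATG7, and none passed the adjusted threshold. The sign of the members' median also depended on which libraries entered. Without EYFP 2 the median was 0.05, without ATG7 2 it was 0.03, and without EYFP 1 it was -0.12, with 10 genes at an unadjusted p under 0.05. The part of choroid plexus RNA in the level of the subunit genes was not tested beyond that fit.

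**Figure D3:**
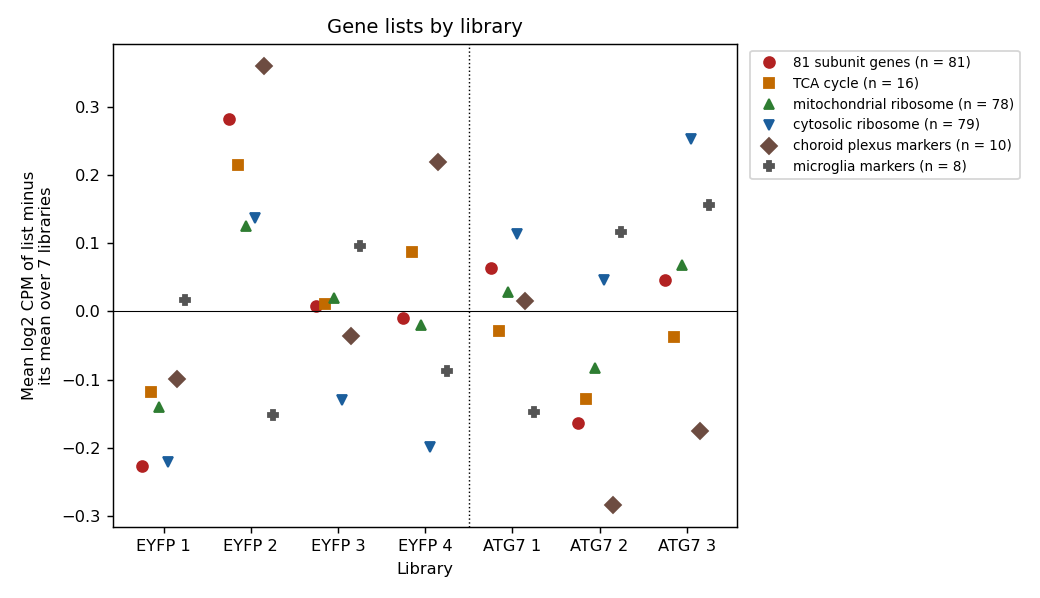
Mean log2 CPM of gene lists in each library, relative to the list's mean over the 7 libraries (n, genes in the list). The 81 subunit genes were highest in EYFP 2 and lowest in EYFP 1, and the choroid plexus markers were highest in EYFP 2 and lowest in ATG7 2.

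None of the 36 genes of complex I passed the test, and their median log2 fold change was -0.04. The 7 nuclear-encoded core subunits, which carry the flavin and iron-sulfur clusters, all had log2 fold changes below 0, with a median of -0.09. The 28 supernumerary subunits, which stabilise and assemble the complex, were divided, 9 above and 19 below 0, with a median of -0.02. The difference between these lists was not tested.

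Ndufs1, the largest core subunit and the carrier of several iron-sulfur clusters (ENSMUSG00000025968, chromosome 1, 63143596 to 63176833, minus strand, GRCm38), measured 96.3, 129, 105 and 109.9 CPM in EYFP 1 to 4. In ATG7 1 to 3 it measured 95.8, 96.2 and 92.0 CPM. All ATG7 libraries lay below all EYFP libraries, by a narrow margin between ATG7 2 and EYFP 1, and no other member showed such a separation. ATG7 over EYFP, its log2 fold change was -0.22 (SE 0.0943, 95% interval -0.42 to -0.01, edgeR adjusted p = 0.394), so it did not pass the test. It was -0.14 without EYFP 2 (adjusted p = 0.577) and -0.25 without EYFP 3 (adjusted p = 0.386). With the choroid plexus term it was -0.06 (adjusted p = 0.921). Exons of Eef1b2 and Ino80dos, on the other strand, overlap those of Ndufs1, and their part in its count was not tested.

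Ndufv1, which binds NADH and the flavin, came next in the order of p. Its levels were 73.9, 91.2, 84.4 and 85.5 CPM in EYFP and 74.9, 77.0 and 77.9 CPM in ATG7 (log2 fold change -0.13, SE 0.0775, edgeR adjusted p = 0.570). Ndufv2, its partner in the NADH module, was at 84.3, 121, 106 and 93.9 CPM and at 96.4, 79.4 and 91.3 CPM (log2 fold change -0.19, SE 0.118, adjusted p = 0.596). In both genes EYFP 1 fell within the range of the ATG7 libraries or below it, so the groups overlapped. Without EYFP 2 the log2 fold change of Ndufv2 was -0.09, and without ATG7 2 it was -0.11.

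Levels within complex I are comparable only per length. Per kb of principal transcript, Ndufa4 was highest, at 392 CPM per kb over all libraries. It was named for complex I and was later placed in complex IV. The lowest was Ndufb2, at 7.62 CPM per kb of a long principal transcript. When the union of annotated exons was used as the length, Ndufa1 was highest, at 221 CPM per kb, so the order depends on the transcript model. Ndufb2 was lowest under both. With that length the highest members of complexes II to V were Sdhd, Uqcr10, Cox8a and Atp5a1, and the lowest were Sdhb, Uqcrc1, Cox4i2 and Atp5s.

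The 4 genes of complex II, the only complex that is also an enzyme of the tricarboxylic acid (TCA) cycle and has no mitochondrially encoded subunit, all had log2 fold changes below 0 and none passed. Sdha, the flavoprotein that oxidises succinate, measured 289, 350.1, 296 and 317 CPM in EYFP and 296, 276 and 283 CPM in ATG7, and the groups overlapped (log2 fold change -0.14, SE 0.0857, edgeR adjusted p = 0.595). Without EYFP 2 the value was -0.08. Sdhb, the iron-sulfur subunit, was at 75.5 ± 7.10 CPM and 73.8 ± 4.57 CPM. The membrane anchors Sdhc and Sdhd were at 139.8 ± 18.1 and 91.9 ± 10.9 CPM in EYFP and at 129.6 ± 7.86 and 87.1 ± 2.04 CPM in ATG7. The mean log2 CPM of the complex differed by -0.08, against an SD of 0.150 among EYFP libraries. Per kb of principal transcript Sdha was highest, at 104 CPM per kb, and Sdhc lowest, at 42.7 CPM per kb.

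Complex III gave the same picture, with 7 of 8 genes below 0, a median of -0.06 and none past the test. Uqcrc1, a core protein of the matrix side, had the smallest p of the complex, at 166, 214, 189 and 205 CPM in EYFP and 171, 172 and 181 CPM in ATG7 (log2 fold change -0.15, SE 0.0919, edgeR adjusted p = 0.594). The other core protein, Uqcrc2, was at 143 ± 16.6 and 133 ± 8.39 CPM, and Uqcrfs1, the Rieske iron-sulfur protein that passes electrons toward cytochrome c1, at 106 ± 14.7 and 99.0 ± 8.01 CPM. Uqcrh, the hinge protein, was the single gene above 0, at 144 ± 21.9 CPM in EYFP and 153 ± 21.1 CPM in ATG7 (log2 fold change 0.09, SE 0.127, adjusted p = 0.843). It kept that sign under all 16 alternatives tried. Per kb of principal transcript Uqcr10 was highest, at 276 CPM per kb, and Uqcrc2 lowest, at 73.1 CPM per kb. Of 6 subunits and carriers whose symbols fall outside the rule 4 were below 0, with a median of -0.04 and none past the test. Cyc1, the cytochrome c1 subunit, was at 118, 157, 126 and 137 CPM in EYFP and 122, 112 and 120.1 CPM in ATG7 (log2 fold change -0.19, adjusted p = 0.484).

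Complex IV held the isoforms, and with them the member with the largest fold change. Several of its subunits exist as a widely expressed form and a form restricted to some tissues. Per kb of principal transcript the widely expressed Cox8a was the highest member of the complex, at 492 CPM per kb, and Cox6a2 the lowest, at 1.75 CPM per kb. Of the 16 genes 3 were above 0 and 13 below, with a median of -0.02, and the mean log2 CPM of the complex differed by 0.02 against an SD of 0.228 among EYFP libraries.

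Cox6a2, the form of subunit 6a of heart and skeletal muscle (ENSMUSG00000030785, chromosome 7, 128205435 to 128206387, minus strand, GRCm38), measured 0.874, 1.31, 0.843 and 0.687 CPM in EYFP 1 to 4. In ATG7 1 to 3 it measured 1.27, 1.82 and 1.53 CPM. The ATG7 libraries were the higher, but EYFP 2 lay just above ATG7 1, so the groups overlapped. ATG7 over EYFP, its log2 fold change was 0.73 (SE 0.272, 95% interval 0.13 to 1.33, unadjusted p = 0.0212, edgeR adjusted p = 0.306), which did not pass the test. It was 0.68 without EYFP 3, 0.59 without ATG7 2 and 0.94 without EYFP 2, and it stayed above 0 under all 16 alternatives. Relative to its widely expressed partner Cox6a1, at 218 ± 29.5 and 201 ± 18.3 CPM, Cox6a2 made up 0.354% ± 0.0659 of the pair per kb in EYFP and 0.648% ± 0.169 in ATG7. The gene lies within Itgad (128154376 to 128223816), which is on the other strand, and the handling of strand is not given in the sources used here. Itgad itself was at 0.0887 to 0.355 CPM with a log2 fold change of -0.04, while the neighbouring integrin gene Itgax rose from 34.2 ± 5.90 to 79.4 ± 12.2 CPM (log2 fold change 1.22, adjusted p = 0.00705, and 1.14 with adjusted p = 0.208 under the choroid plexus term). Itgax runs from 128129547 to 128150657 on the plus strand and does not overlap Cox6a2. Itgad was the only annotated gene with exons overlapping those of Cox6a2. Whether reads from the neighbouring genes entered the Cox6a2 count was not tested.

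Cox4i2, the form of subunit 4 known from lung and from pericytes (ENSMUSG00000009876, chromosome 2, 152754173 to 152765037, plus strand, GRCm38), was the other low-count isoform. It measured 1.83, 1.98, 1.42 and 0.761 CPM in EYFP and 1.27, 0.874 and 1.42 CPM in ATG7, with a log2 fold change of -0.34 (SE 0.331, edgeR adjusted p = 0.755). Leaving out 1 library moved it between -0.15 (without ATG7 2) and -0.56 (without EYFP 4), and it was -0.17 without EYFP 2 and -0.37 without EYFP 3. Its lowest libraries, EYFP 4 and ATG7 2, were also the lowest in the pericyte marker Rgs5, which measured 180.1, 182, 134 and 86.3 CPM in EYFP and 162, 122 and 160.1 CPM in ATG7. The 6 mural-cell markers summed to 203 to 369 CPM in EYFP and 262 to 343 CPM in ATG7, with none at 0. Their part in the Cox4i2 level was not tested. Per kb Cox4i2 was 0.208% to 0.612% of the pair with Cox4i1, the widely expressed form, which was at 368 ± 53.9 CPM in EYFP and 367 ± 27.9 CPM in ATG7.

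Other restricted isoforms were present at larger shares. Cox6b2, known from testis, made up 17.8% to 22.6% of its pair with Cox6b1 per kb of principal transcript. It was at 25.0 ± 3.83 CPM in EYFP and 22.2 ± 1.08 CPM in ATG7. The share depends on the transcript model. Over all libraries Cox6b2 and Cox6b1 were at 43.0 and 172 CPM per kb of principal transcript. With the union of annotated exons as the length they were at 21.5 and 150 CPM per kb. Cox7a1, of heart and muscle, made up 11.5% to 15.8% of its pair with Cox7a2. Cox8b, another muscle form, made up 7.48% to 11.5% of its pair with Cox8a and was at 14.0, 23.2, 22.7 and 14.8 CPM in EYFP and 20.4, 16.9 and 18.4 CPM in ATG7. The EYFP libraries of Cox8b thus fell into a high and a low pair, and the ATG7 libraries lay between them. Cox7a2l, an assembly factor that joins complexes III and IV in supercomplexes, had levels of 106, 140.0, 107 and 112 CPM in EYFP and 126, 124 and 141 CPM in ATG7 (log2 fold change 0.16, SE 0.104, edgeR adjusted p = 0.596). EYFP 1, 3 and 4 lay below the ATG7 libraries and EYFP 2 lay among them, and without EYFP 2 its log2 fold change was 0.26 (adjusted p = 0.186). It was 0.10 without ATG7 3 and 0.12 without EYFP 1 or EYFP 3. With the choroid plexus term it was 0.33 (edgeR adjusted p = 0.330).

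**Figure D4:**
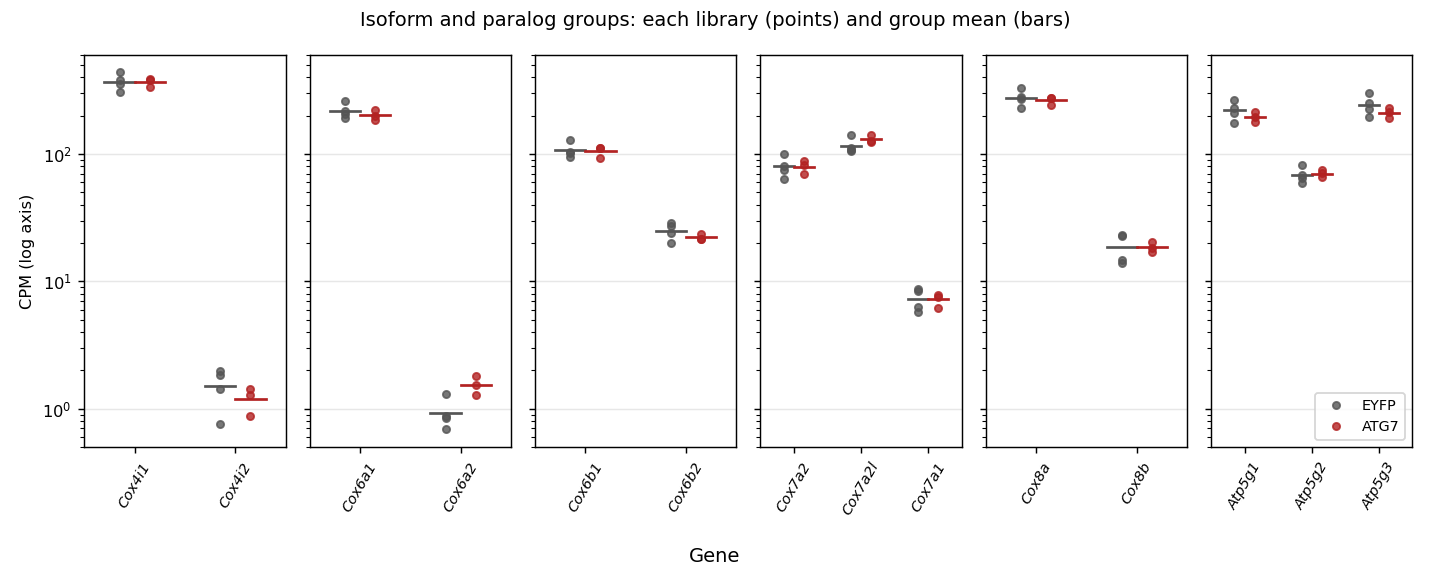
CPM (log axis) of the isoform and paralog groups of complexes IV and V in each EYFP (grey) and ATG7 (red) library, with group means as bars. CPM is not divided by length, so levels are read within a gene and not between genes. Cox4i2 and Cox6a2 lie near 1 CPM, and their widely expressed partners Cox4i1 and Cox6a1 lie above 100 CPM.

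No gene of complex V passed the test, with 7 of 17 above 0 and 10 below. Atp5b, the catalytic beta subunit, measured 818, 1172, 909.9 and 1019 CPM in EYFP and 904, 813 and 878 CPM in ATG7, which overlapped (log2 fold change -0.18, SE 0.119, edgeR adjusted p = 0.616). Its partner in the catalytic ring, Atp5a1, measured 645, 858, 699 and 774 CPM and 680.5, 637 and 678 CPM (log2 fold change -0.16, SE 0.104, adjusted p = 0.604). Without EYFP 2 these values were -0.09 for both Atp5b and Atp5a1. Of the 5 subunits of the soluble F1 part 4 were below 0, and Atp5e, the small epsilon subunit, was above 0 at 0.09 (adjusted p = 0.837). Per kb of principal transcript Atp5b was the highest of the complex, at 486 CPM per kb. The lowest was Atp5s, at 10.1 CPM per kb, a coupling factor that carries the symbol but is not a subunit of the enzyme.

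Of the membrane part, the 4 accessory subunits Atp5j2, Atp5k, Atp5l and Atp5mpl all had log2 fold changes above 0, from 0.004 to 0.11, and of the 4 peripheral stalk subunits 3 were below 0, none passing the test. The difference between these roles was not tested. The highest of the accessory values, that of Atp5l, was 0.04 when its pseudogene copies were summed with it, -0.01 without EYFP 1, 0.04 without ATG7 1, 0.20 without ATG7 2 and 0.21 without EYFP 2. With the choroid plexus term the value of Atp5l was 0.43 (edgeR adjusted p = 0.171). The 3 c-ring genes encode the same mature protein behind different import sequences. Atp5g3 measured 195, 301, 227 and 249.6 CPM in EYFP and 228, 193 and 212 CPM in ATG7 (log2 fold change -0.20, SE 0.130, edgeR adjusted p = 0.601), and Atp5g1 had a log2 fold change of -0.17 (adjusted p = 0.671). Without EYFP 2 the value of Atp5g3 was -0.09. Atp5g2, at 68.3 ± 9.41 and 70.1 ± 4.49 CPM, lay at 0.04 (adjusted p = 0.931). Of the CPM of the 3 genes, Atp5g2 took 12.9% ± 0.632 in EYFP and 14.7% ± 0.808 in ATG7, and Atp5g3 took 45.8% ± 0.564 and 44.3% ± 0.363. These shares were not tested; the lowest ATG7 share of Atp5g2, 13.8% in ATG7 1, equalled that of EYFP 1 to this precision.

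Across the members the difference between groups went with transcript length. Among the 27 genes with the shortest principal transcripts, up to 623 bases, the median log2 fold change was -0.01, with 11 above and 16 below 0. Among the 27 longest, from 1076 bases, it was -0.09, with 3 above and 24 below 0. Spearman's rho over the 81 genes was -0.45, given as a description, since genes share libraries and are not independent replicates. A trend with the length of the union of annotated exons, and not of the principal transcript, was also fitted in each library. With that trend as an offset, the members' median was -0.07 and again none passed. The part of length in these differences was not tested otherwise.

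**Figure D5:**
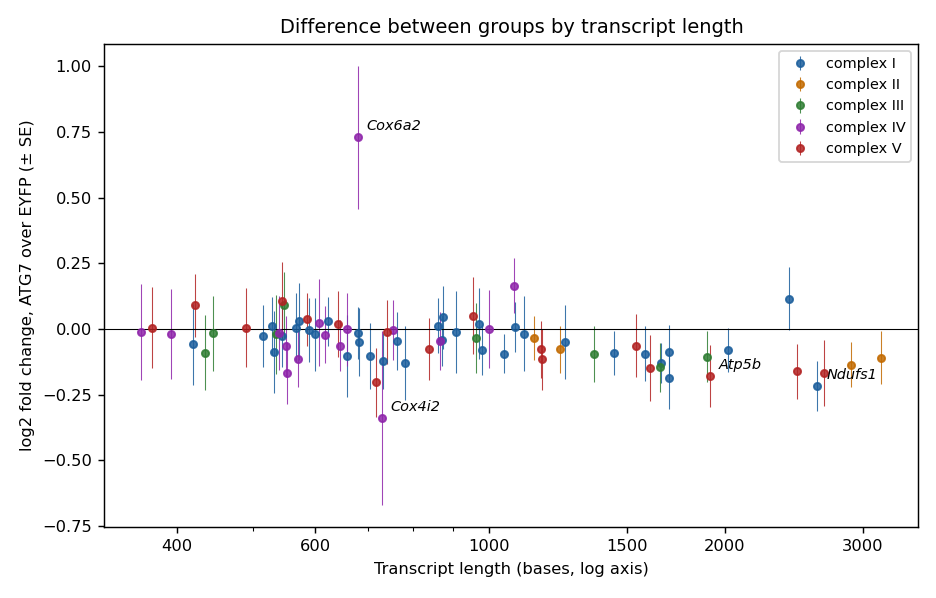
Log2 fold change, ATG7 over EYFP (± SE), of the subunit genes reported here against the length of the principal transcript in bases (log axis), by complex. Short transcripts lie on both sides of 0, while most of the longest lie below it.

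Copies elsewhere in the genome limit the counts of some members. A transcript at least 95% identical over at least 150 bases was found for 23 members, with 43 copies in all. Of the copies, 19 had 10 or more counts in every library. The largest share of a pair was that of Gm10221, a processed pseudogene of Atp5l, at 28.1% to 34.3% of the pair's counts, so the level of Atp5l is uncertain. Gm10039, a copy of Atp5g1, took 18.2% to 18.9% of its pair. None of the 19 copies passed the test between groups, and 13 were highest in EYFP 2. Summing each copy with its parent left a members' median of -0.04 and none past the test. Exons of another annotated gene overlapped those of 28 members, for 25 of them on the opposite strand. The strand setting is not given, and the part of such reads in these counts was not tested.

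Genes that build, feed or oppose the respiratory chain were taken from lists of related pathways, in which 0.755% of all genes tested is the background for calls. None of the 49 assembly factors, 16 TCA cycle and pyruvate dehydrogenase genes, 22 glycolysis genes, 16 biogenesis genes, 77 mitochondrial ribosomal proteins, 14 import genes, 18 quality-control genes and 10 redox genes passed in either direction. Of the TCA cycle genes 15 of 16 were below 0, with a median of -0.11. Like the choroid plexus markers, the TCA cycle genes had their highest mean log2 CPM in EYFP 2 (7.13) and their lowest in ATG7 2 (6.79). With the choroid plexus term 11 of 16 were above 0, with a median of 0.02, and without EYFP 2 the median was -0.06. Among the other lists, the smallest p of its list belonged to Nubpl, which inserts iron-sulfur clusters in complex I (log2 fold change -0.32, adjusted p = 0.285), Hspe1, a mitochondrial chaperonin (0.36, adjusted p = 0.163), and Ucp2, an inner-membrane carrier (-0.21, adjusted p = 0.373). For the biogenesis genes it was Pprc1, a coactivator (adjusted p = 0.450), for the mitochondrial ribosome Mrps17 (0.21, adjusted p = 0.224), and for the cytosolic ribosome Rpl30 (0.36, adjusted p = 0.102). The mitochondrial ribosome had a median of 0.001 and the assembly factors one of -0.02. The cytosolic ribosome stood at 0.26, with 76 of 77 genes above 0, 46 at an unadjusted p under 0.05 and none past the adjusted threshold with edgeR. DESeq2 gave 7 at the adjusted threshold, all higher in ATG7, and limma-voom 2. Without EYFP 2 edgeR gave 10.

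In glycolysis, Pfkfb3, which makes the activator of phosphofructokinase, had the smallest p. It measured 145, 125, 134 and 141 CPM in EYFP and 159, 186 and 176 CPM in ATG7, with no overlap (log2 fold change 0.35, SE 0.0812, edgeR adjusted p = 0.0968), which did not pass. The glycolysis median was -0.04. Among 6 inflammatory regulators of respiration, 1 passed: Acod1, the enzyme that makes itaconate, an inhibitor of succinate dehydrogenase, rose from 2.38, 2.51, 2.90 and 1.40 CPM in EYFP to 4.50, 8.30 and 6.54 CPM in ATG7 (log2 fold change 1.49, SE 0.261, adjusted p = 0.0272). All ATG7 libraries were above all EYFP libraries. Without EYFP 3 the log2 fold change was 1.62 (adjusted p = 0.0293). The call was lost without EYFP 2 (adjusted p = 0.0655), EYFP 4 (0.0686), ATG7 2 (0.141) or ATG7 3 (0.132), and with the choroid plexus term (1.14, adjusted p = 0.262). The 4 Sdh genes, whose product itaconate inhibits, did not pass the test, as given above. Atg7 in these CD11b-enriched cells was at 35.6 ± 1.68 CPM in EYFP and 34.9 ± 2.76 CPM in ATG7 (adjusted p = 0.939).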

How the data were processed

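RNA sequencing counts of 7 libraries (EYFP 1 to 4, ATG7 1 to 3, grouped by sample title) were used. The authors deposited whole-number counts per Ensembl gene. Per the submitters' processing notes, fastp 0.20.1, HISAT2 2.0.5, featureCounts and the mm10/GRCm38 build were used. The settings for strand and shared reads, and the annotation release, are not given in the sources used here. GENCODE M21 gave symbols and GRCm38 positions for 55141 of 55401 genes, and 260 were unmatched.

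Groups were compared with edgeR 4.0.16 (R 4.3.3) on these counts: TMM factors, filterByExpr, robust quasi-likelihood test, two-sided, Benjamini-Hochberg adjustment over 19199 genes, all 7 libraries and no covariate. All 81 members passed the filter. SE is the absolute log2 fold change over the square root of F. Log2 CPM used a prior count of 2. Same-group libraries differed beyond sampling noise (chi-square per degree of freedom 19.2 to 41.3), so each was 1 replicate. The labels mention no molecular identifiers. The code was tested on simulated data. Copies were found with BLASTN 2.17.0 and principal transcripts came from GENCODE's APPRIS tags.

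The members and lists were chosen with earlier results of these data known. The text names members past the threshold, the 3 smallest p and the highest and lowest level per kb in each complex, isoform groups, genes next to the count minimum, the Sdh genes, Atg7 and, per list, up to 3 passing genes or the smallest p. A few results are not reported here, and the figures of single genes leave out 1 member. Other genes named were chosen after their values were seen. Alternatives were DESeq2 1.42.0 size factors and Wald test, library size alone, no filter, and limma-voom with a quality weight per library (limma 3.58.1). Further ones were a replicate block, a choroid plexus covariate, a length offset and each library left out.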

Additional observations from a re-analysis of the deposited data

How the results depend on the processing

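No member passed the adjusted threshold under any of the 16 alternatives, where the smallest adjusted p was 0.170. The number of all genes that differed (145) was less stable: it was 297 with no filter (234 higher, 63 lower), 572 by the DESeq2 Wald test (404 higher, 168 lower), 5 with the choroid plexus covariate and 28 to 277 with 1 library left out. With the replicate number as a block it was 0, with 1256 genes at an unadjusted p under 0.05. Deviations of same-numbered libraries from their group means correlated at -0.06, -0.18 and 0.07. These were not compared with differently numbered pairs, so they cannot show whether the numbers mark a shared preparation. The members' median was 0.18 with the choroid plexus covariate and -0.12 to 0.05 with 1 library left out. By limma-voom with quality weights it was -0.009, with 45 members below 0 and 36 above. Differences in complex means ranged with 1 library left out from -0.12 to 0.04 (I), -0.14 to -0.02 (II), -0.14 to 0.05 (III), -0.05 to 0.12 (IV) and -0.13 to 0.05 (V). Signs were the same under every setting for 11 members: Cox4i2, Cox6b2, Ndufs1, Ndufv1, Sdha and Uqcrc1 below 0, and Atp5e, Cox6a2, Cox7a2l, Ndufb2 and Uqcrh above. A constant sign says little for Sdha and Uqcrc1, which with the choroid plexus covariate were at only -0.0004 and -0.008. Summing copies with their parent was chosen after seeing the data. The causes of these shifts were not tested. With the replicate block Acod1 (adjusted p = 0.224) and Itgax (0.0972) did not pass. The members with the fewest counts, Cox4i2 and Cox6a2, had intervals reaching beyond ±1.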
